A study of Mus musculus with 4 samples.

Results

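The receptors and effectors of Wnt signalling were followed in muscle stem cells (MuSCs) of overloaded and sham-operated plantaris muscle. The genes were chosen by name: the Frizzled receptors Fzd4 and Fzd7, the co-receptors Lrp5 and Lrp6, the R-spondin Rspo3, the destruction complex genes Axin2 and Apc, the transcription factors Tcf7l2 and Lef1, and the planar polarity gene Vangl2. Of these 10 genes, 9 were found by their symbol among the 19353 genes of the table, and Rspo3 was not analysed here. The MuSCs came from Pax7-CreERT2:Rosa-YFP mice given tamoxifen, in which Cre under the control of Pax7 switches on yellow fluorescent protein (YFP), so that the sort takes cells that expressed Pax7 at the time of tamoxifen and also their progeny. In the tenotomy group the distal tendons of gastrocnemius and soleus were cut, which overloads the plantaris. In the sham group only the skin was opened. All mice carried the same alleles, cells were collected 4 days after surgery, and the age and sex of the mice were not given in the sources used here.

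Wnt ligands bind a Frizzled receptor together with LRP5 or LRP6 at the cell surface. Without a ligand, a destruction complex built on AXIN and APC marks beta-catenin for degradation, and with a ligand beta-catenin is spared and acts in the nucleus with TCF and LEF factors. Other Wnt responses use Frizzled without beta-catenin, and the planar polarity pathway with Vangl proteins is among them. In adult muscle, Wnt signals are known for effects on the quiescence, expansion and differentiation of MuSCs.

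Libraries were made by CEL-Seq2 from tubes of 100 sorted cells, with 2 tubes per group. CEL-Seq2 reads the poly(A) end of a transcript and tags each captured molecule with a unique molecular identifier (UMI), which makes a count the number of molecules captured. After sham surgery 269683 and 260488 UMIs were counted, or 2697 and 2605 per sorted cell. After tenotomy the counts were 387955 and 483528, or 3880 and 4835 per sorted cell. Each tube pooled its cells, so fewer cells expressing a gene and less of its RNA in each cell cannot be told apart. Whether the tubes of a group came from different mice was not stated, and p-values then measure only the spread between these tubes, which may be technical.

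The label of the cells was checked against 12 markers of MuSCs, and all 12 were detected in every library. Pax7, the defining transcription factor of these cells, had 118 and 107 UMIs in the sham libraries and 108 and 137 in the tenotomy libraries. Levels are given as CPM, the UMIs of a gene scaled to a common library total with TMM factors, as mean ± SD of n = 2 libraries per group, and differences as log2 fold changes of tenotomy over sham. A gene passed the test at an adjusted p of 0.1 from edgeR's quasi-likelihood test, with adjustment over all 7228 genes with enough UMIs to test. The library totals behind CPM counted only these genes, with 252687 and 243135 UMIs in sham and 355329 and 441218 in tenotomy. On that scale Pax7 fell from 499 ± 20.4 to 279 ± 2.39 CPM (adjusted p = 0.000635), while UMIs per tube of 100 cells gave a log2 value of 0.12 for it (adjusted p = 0.62).

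Among the genes analysed, Fzd4 and Lrp6 fell after tenotomy relative to the other genes and none rose past the threshold. Fzd7, Apc and Tcf7l2 had higher CPM in each tenotomy library than in either sham library without passing the test, and Lrp5 overlapped. Axin2, Lef1 and Vangl2 were also higher in both tenotomy libraries, but had too few UMIs to be tested. Thus 2 of the 6 tested genes were lower and 0 were higher, also at an unadjusted p of 0.05. With DESeq2 neither passed (adjusted p = 0.13 for Fzd4 and 0.17 for Lrp6), and 0 of the 6 were higher. Over all tested genes 26.3% were called lower and 25.8% higher, so calls were common in this comparison. Of all calls, 49.6% were higher with TMM, 66.6% with library sizes alone and 93.1% with UMIs per tube, and 3 of the 6 genes (Fzd7, Apc and Tcf7l2) were then called higher under either of the latter. Of all tested genes, 37.3% were called higher and 18.7% lower with library sizes alone, and 62.0% higher and 4.58% lower per tube. Over the 6 genes the log2 fold changes had a median of 0.035, against 0.051 for all tested genes.

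Groups that do not overlap in CPM were likewise common: 37.5% of tested genes had both tenotomy libraries above both sham libraries, and 35.4% had both below. Of the 6 tested genes, 3 lay above and 2 below. In all 9 genes, untested ones included, 6 lay above, 2 below and 1 overlapped. The shares just given cover tested genes only, and none was taken over all genes. They are thus no measure for this count, which holds the untested Axin2, Lef1 and Vangl2. For Lef1 the difference was not detectable in CPM, as described below. Together the 9 genes had 160 and 185 UMIs in the sham libraries, and 279 and 351 in the tenotomy libraries. Their summed CPM was 696 and 838 after sham surgery and 725 and 711 after tenotomy, so the groups overlapped on that scale.

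**Figure D1:**
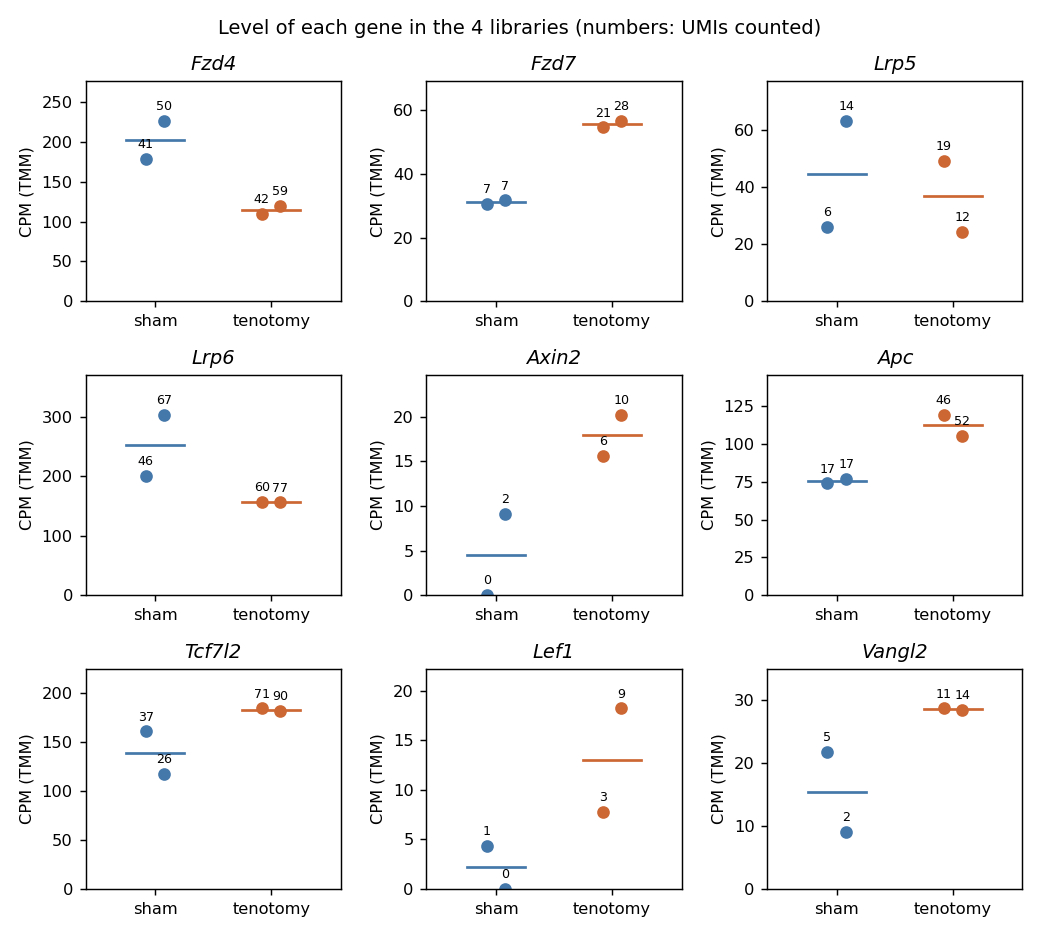
CPM after TMM scaling (vertical axes, linear and starting at 0) of the 9 genes in the 2 sham and 2 tenotomy libraries. Points are libraries, lines are group means, and the number beside each point is the UMIs counted. Fzd4 and Lrp6 lie lower after tenotomy on this scale although their UMIs overlap between the groups, Lrp5 overlaps on either measure, and the other 6 genes lie higher.

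Because CEL-Seq2 counts each molecule at its 3′ end, CPM was compared between genes without division by transcript length, although capture may differ between transcripts. In sham MuSCs the order of mean CPM was Lrp6, Fzd4, Tcf7l2, Apc, Lrp5, Fzd7, Vangl2, Axin2 and Lef1, from 252 down to 2.18. Libraries of neighbouring genes overlapped for Lrp6 with Fzd4, Lrp5 with Fzd7 and Axin2 with Lef1, and those of Vangl2 and Axin2 met at 9.06 CPM. After tenotomy the order was Tcf7l2, Lrp6, Fzd4, Apc, Fzd7, Lrp5, Vangl2, Axin2 and Lef1, from 183 down to 13.01. Here the neighbours that overlapped were Fzd4 with Apc, Lrp5 with Vangl2, and Axin2 with Lef1.

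Fzd4 encodes a Frizzled receptor that also binds norrin, a ligand unrelated to the Wnt family. It had 41 and 50 UMIs in the sham libraries and 42 and 59 in the tenotomy libraries, so the counted molecules overlapped between the groups. Relative to the other genes its level fell from 202 ± 34.0 to 114 ± 7.26 CPM, a log2 fold change of -0.81 (SE 0.22, 95% confidence interval -1.29 to -0.34, adjusted p = 0.00728). Both tenotomy libraries lay below both sham libraries in CPM. With DESeq2 the call was lost (-0.82, adjusted p = 0.13). With UMIs per tube, taken without scaling between libraries, the log2 fold change was 0.15 (adjusted p = 0.69), so the direction of Fzd4 rests on scaling to the total of a library.

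Fzd7 encodes a Frizzled receptor studied in MuSCs as a receptor for Wnt7a. It had 7 UMIs in each sham library, and 21 and 28 in the tenotomy libraries. Its level was 31.1 ± 0.877 CPM after sham surgery and 55.7 ± 1.48 CPM after tenotomy, with no overlap. The log2 fold change of 0.84 (SE 0.41, interval -0.03 to 1.70) did not pass the threshold (adjusted p = 0.109). Its 14 UMIs in the sham libraries were the fewest of the 6 tested genes, and it passed the filter on low counts only through the tenotomy libraries. Per tube the log2 fold change was 1.79 (adjusted p = 0.00362).

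The share of a receptor among the UMIs of all 10 Frizzled genes does not depend on scaling between libraries. Fzd4 made up 45.1% and 60.2% of Frizzled UMIs in the sham libraries and 37.8% and 37.1% in the tenotomy libraries. Fzd7 made up 7.69% and 8.43% in the sham libraries and 18.9% and 17.6% in the tenotomy libraries. Thus both tenotomy libraries held a smaller share of Fzd4 and a larger share of Fzd7 than both sham libraries, with Fzd4 the most frequent Frizzled in all 4. Summed per group, Fzd4 was 52.3% of 174 UMIs in sham (exact Clopper-Pearson interval 44.6 to 59.9) and 37.4% of 270 UMIs in tenotomy (31.6 to 43.5). Fzd7 went from 8.05% (4.47 to 13.1) to 18.1% (13.7 to 23.3). These intervals cover counting error only, and with 2 libraries against 2 an exact permutation test of a share could not go below p = 0.33. A share also depends on the other genes of the family. Summed per group, Fzd2 went from 1.72% to 18.1%, while Fzd4 had 91 UMIs in sham and 101 in tenotomy. A smaller share of Fzd4 is thus not by itself a fall of Fzd4.

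Of the other tested Frizzled genes, Fzd2 rose, Fzd5 fell and Fzd1 did not pass the test (-0.10, adjusted p = 0.87). Fzd2 had 3 and 0 UMIs in the sham libraries and 19 and 30 in the tenotomy libraries, a ratio of 8.38 in CPM with a counting interval of 2.70 to 42.0. It entered the test only through the tenotomy libraries, where it is high. It rose past the threshold (adjusted p = 0.00150), but not with abundance offsets, a loess fit that takes out any trend of fold change with expression level (adjusted p = 0.68). Fzd5 had 17 and 16 UMIs against 8 and 8, a log2 fold change of -1.98 (SE 0.40, adjusted p = 0.000786). The share of Fzd2 was 3.30% and 0% in the sham libraries and 17.1% and 18.9% in the tenotomy libraries. For Fzd5 the shares were 18.7% and 19.3% against 7.21% and 5.03%.

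**Figure D2:**
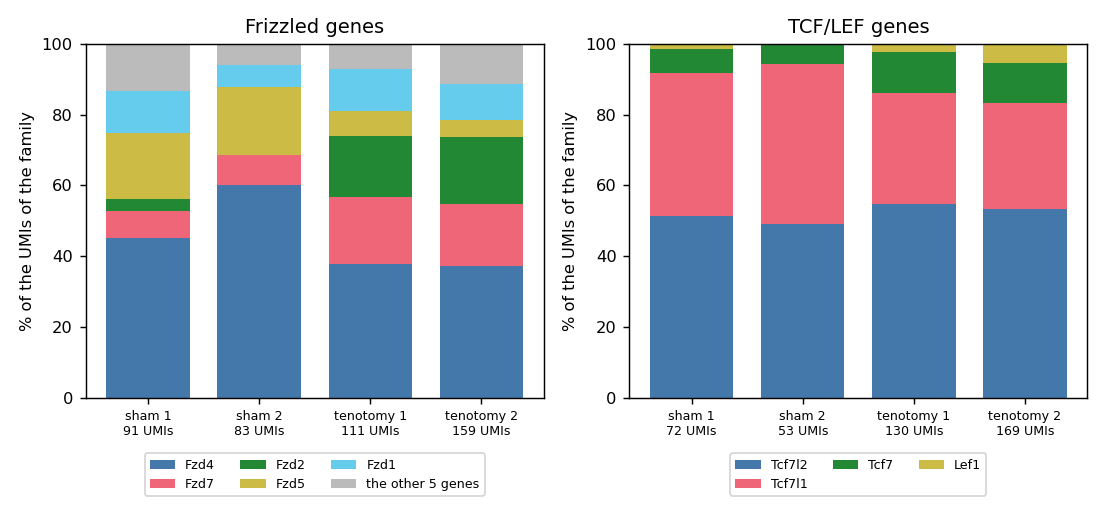
Share of each gene in the UMIs of the Frizzled family (left) and of the TCF and LEF family (right), in percent, for each library, with the UMIs of the family under each bar. In the tenotomy libraries Fzd4 takes 37.8% and 37.1% of Frizzled UMIs and Fzd7 and Fzd2 take more than in sham, while Tcf7l2 takes 49.1% to 54.6% of TCF and LEF UMIs in all 4 libraries.

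The 250 bases before the RefSeq start (build GRCm38.p6) are shown for Fzd4 and Fzd7, whose shares of Frizzled UMIs were compared above, and for Axin2, a gene used as a readout of beta-catenin and TCF. They were searched on both strands for the core word of TCF and LEF factors, CTTTG followed by 2 letters that are each A or T, and capitals mark a match, here the reverse-strand form of the word with T at both of these letters.
Fzd4: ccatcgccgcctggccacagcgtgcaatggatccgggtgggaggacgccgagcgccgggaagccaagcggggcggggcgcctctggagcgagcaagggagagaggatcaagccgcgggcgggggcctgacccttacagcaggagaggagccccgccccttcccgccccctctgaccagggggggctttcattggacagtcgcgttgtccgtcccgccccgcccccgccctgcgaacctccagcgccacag
Fzd7: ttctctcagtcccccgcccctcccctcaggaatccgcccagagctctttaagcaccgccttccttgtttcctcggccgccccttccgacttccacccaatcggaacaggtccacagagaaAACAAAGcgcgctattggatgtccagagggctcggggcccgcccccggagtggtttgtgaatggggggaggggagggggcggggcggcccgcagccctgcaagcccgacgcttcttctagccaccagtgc
Axin2: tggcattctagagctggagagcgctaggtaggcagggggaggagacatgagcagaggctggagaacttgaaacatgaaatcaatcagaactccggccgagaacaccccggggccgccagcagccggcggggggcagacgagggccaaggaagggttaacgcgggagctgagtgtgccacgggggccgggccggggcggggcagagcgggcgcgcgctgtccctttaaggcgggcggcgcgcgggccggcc

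The windows lie at chr7:89404116-89404365 for Fzd4, chr1:59481897-59482146 for Fzd7 and chr11:108920099-108920348 for Axin2, all on the plus strand. The match in the Fzd7 window begins 130 bases before the start, and the windows of Fzd4 and Axin2 hold none of these letters. Of 32851 such windows of mouse genes, 14.8% held at least 1 of the 4 words. Among the genes described here, with chromosome 18 and thus Apc left out, 10 windows of 6 genes were found. Of these, 3 windows, of Fzd7, Lef1 and Tcf7l2, held a word. The GC content was 72.8% for Fzd4, 65.2% for Fzd7 and 69.2% for Axin2, against a median of 52.4% over all windows. A match describes the letters only, and its absence from a window of this length says nothing about the factor.

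Lrp6 and Lrp5 encode the single-pass co-receptors that pair with Frizzled for beta-catenin signalling. Lrp6 had the most UMIs of the genes described, with 46 and 67 in the sham libraries and 60 and 77 in the tenotomy libraries. The UMIs overlapped between the groups, while in CPM both tenotomy libraries lay below both sham libraries. Its level fell from 252 ± 73.0 to 156 ± 0.054 CPM, a log2 fold change of -0.69 (SE 0.22, interval -1.14 to -0.23, adjusted p = 0.0165). The call was lost with library sizes alone (-0.41, adjusted p = 0.12), with abundance offsets (-0.43, adjusted p = 0.13) and with DESeq2 (-0.69, adjusted p = 0.17). Without sham replicate 2 the log2 fold change was -0.40, and per tube it was 0.28 (adjusted p = 0.42).

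Lrp5 was the less frequent of the pair, with 6 and 14 UMIs in the sham libraries and 19 and 12 in the tenotomy libraries. Its level was 44.8 ± 26.4 CPM after sham surgery and 36.9 ± 17.7 CPM after tenotomy, and the groups overlapped. The log2 fold change of -0.32 (SE 0.48, interval -1.33 to 0.69, adjusted p = 0.61) leaves both directions possible, and was 0.41 without sham replicate 2 and 0.63 per tube. Lrp6 made up 88.5% and 82.7% of the UMIs of this pair in the sham libraries and 75.9% and 86.5% in the tenotomy libraries, which overlapped.

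Apc and Axin2 belong to the destruction complex. Apc, a scaffold of the complex on mouse chromosome 18, had 17 UMIs in each sham library, and 46 and 52 in the tenotomy libraries. It overlaps Gm10548 on the other strand, whose reads may not be separated. Its level was 75.5 ± 2.13 CPM after sham surgery and 112 ± 10.1 CPM after tenotomy, higher in both tenotomy libraries. The log2 fold change of 0.57 (SE 0.29, interval -0.04 to 1.17) did not pass the threshold (adjusted p = 0.118), but did with library sizes alone (0.84, adjusted p = 0.022). Per tube it was 1.52 (adjusted p = 0.00200).

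Axin2 encodes a scaffold that beta-catenin and TCF also induce, and it is widely used as a reporter of the pathway. It had 0 and 2 UMIs in the sham libraries and 6 and 10 in the tenotomy libraries, too few to be tested. The ratio of tenotomy over sham was 4.10 in CPM, with a counting interval of 0.965 to 36.8 that includes no difference. Per tube the ratio was 8 (1.88 to 71.7). Both tenotomy libraries, at 15.6 and 20.3 CPM, lay above the sham libraries, and also above the 13.1 CPM that 3 UMIs, the limit that a count of 0 allows, make in the first sham library. No such limit was worked out for the second sham library, with 2 UMIs or 9.06 CPM. The comparison with the first library alone thus does not place the difference beyond counting error. When every gene was tested, its log2 fold change of 2.02 did not pass (adjusted p = 0.11). Axin2 overlaps Gm11670 on the other strand, and the strand setting of the counting was not stated, so reads of the 2 genes may not be separated.

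Of the UMIs of Apc, Axin1 and Axin2 together, Apc made up 50% and 51.5% in the sham libraries and 59.7% and 50% in the tenotomy libraries. Axin1, the constitutive scaffold, had a log2 fold change of 0.14 (adjusted p = 0.76). The share of Axin2 was 0% and 6.06% in the sham libraries, where 0 of 34 UMIs allows a share of up to 8.82%, and 7.79% and 9.62% in the tenotomy libraries. The share of Axin2 was therefore not distinguishable between the groups at this depth.

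Tcf7l2 and Lef1 encode the DNA-binding partners of beta-catenin. Tcf7l2 had 37 and 26 UMIs in the sham libraries and 71 and 90 in the tenotomy libraries. Its level was 139 ± 30.6 CPM after sham surgery and 183 ± 1.66 CPM after tenotomy, without overlap. The log2 fold change was 0.39 (SE 0.22, interval -0.08 to 0.86) and did not pass the threshold (adjusted p = 0.170). It was 0.60 without sham replicate 1 and 0.15 without sham replicate 2. Library sizes alone gave 0.67 (adjusted p = 0.020), and UMIs per tube gave 1.35 (adjusted p = 0.00166), both past the threshold. Tcf7l2 shares its locus with Ppnr on the same strand.

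Lef1 had 1 and 0 UMIs in the sham libraries and 3 and 9 in the tenotomy libraries. The ratio was 6.15 in CPM, with a counting interval of 0.911 to 263, and 12.0 per tube (1.78 to 513). In the second sham library 3 UMIs, the limit that its count of 0 allows, correspond to 13.6 CPM, above the 7.80 CPM of the first tenotomy library, so the difference was not detectable in CPM at this depth. Lef1 overlaps Gm42449 on the same strand and Gm43352 on the other.

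Within the 4 TCF and LEF genes, Tcf7l2 made up 51.4% and 49.1% of UMIs in the sham libraries and 54.6% and 53.3% in the tenotomy libraries. Tcf7l1, known mainly as a repressor, made up 40.3% and 45.3% against 31.5% and 30.2%. The shares of Tcf7 were 6.94% and 5.66% against 11.5% and 11.2%. The shares of Tcf7l2 and Tcf7 were thus larger in both tenotomy libraries and that of Tcf7l1 smaller. No test of these shares could go below p = 0.33 by exact permutation. Lef1 made up 1.39% and 0% against 2.31% and 5.33%, and since 0 of 53 UMIs allows up to 5.66%, its share was not distinguishable between the groups at this depth. In the fit, Tcf7 rose by a log2 fold change of 1.11 (SE 0.48, adjusted p = 0.0705), which was 0.09 with abundance offsets, and Tcf7l1 had -0.17 (adjusted p = 0.63).

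Vangl2 encodes a membrane protein of the planar polarity pathway. It had 5 and 2 UMIs in the sham libraries and 11 and 14 in the tenotomy libraries, and was not tested. Its level was 15.4 ± 8.98 CPM after sham surgery and 28.5 ± 0.177 CPM after tenotomy, higher in both tenotomy libraries. The ratio was 1.83 in CPM (counting interval 0.770 to 5.02) and 3.57 per tube (1.5 to 9.78). Its paralogue Vangl1, which entered the test only through the tenotomy libraries, had 1 and 4 UMIs against 18 and 24 and rose by a log2 fold change of 2.07 (SE 0.55, adjusted p = 0.00611), which was 0.53 (adjusted p = 0.56) with abundance offsets. Vangl2 was 5 of 6 and 2 of 6 Vangl UMIs in the sham libraries, so no share could be compared.

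The genes other than Apc lie, in GRCm38 with the GENCODE M21 annotation, at chr7:89404355-89413134 (Fzd4, 2 exons), chr1:59482424-59486955 (Fzd7, 1 exon), chr19:3584828-3686564 (Lrp5) and chr6:134446476-134566965 (Lrp6). Axin2 lies at chr11:108920349-108950783, Tcf7l2 at chr19:55741820-55933654, Lef1 at chr3:131110471-131224356 and Vangl2 at chr1:172000960-172028444. Counts were assigned to whole genes, and no gene overlapped Fzd4, Fzd7, Lrp5, Lrp6 or Vangl2.

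The scale decided the direction of 3 genes. For all tested genes the median was 1.01 per tube and 0.33 with library sizes alone, against 0.051 with TMM. These scalings shift all genes of a library nearly alike, so values relative to the median gene are the same on each scale by construction. Per tube they were -0.86 for Fzd4, -0.73 for Lrp6, -0.39 for Lrp5, 0.34 for Tcf7l2, 0.51 for Apc and 0.78 for Fzd7. Counted per tube of 100 cells, the UMIs of Fzd4 and Lrp6 overlapped between the groups.

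**Figure D3:**
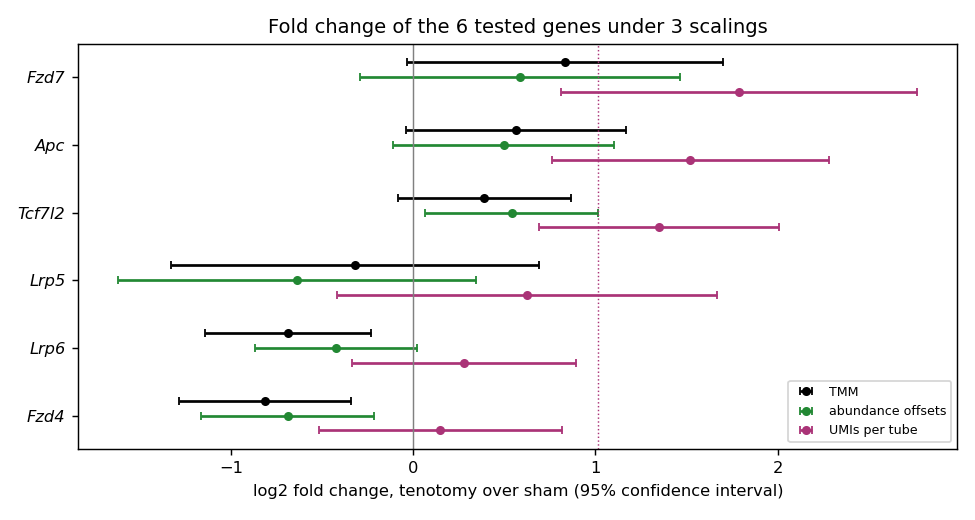
Log2 fold change of tenotomy over sham with its 95% confidence interval for the 6 tested genes, with TMM scaling (black), abundance offsets (green) and UMIs per tube without scaling (purple). The grey line is no difference and the dotted line the median of all tested genes per tube, 1.01. Fzd4 and Lrp6 lie below 0 with TMM and above 0 per tube, and every gene lies further right per tube.

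Beyond these genes, 134 other genes of the pathway were listed in 8 groups by role, of which 112 were found and 59 had enough UMIs to test. Of the 59, 9 rose and 22 fell with TMM, with a median log2 fold change of -0.17, against 0.051 for all tested genes. The split depended on the scale: per tube 32 were higher and 6 lower (median 0.79, against 1.01 for all tested genes), and with library sizes alone 16 were higher and 17 lower. Over all tested genes 62.0% were called higher and 4.58% lower per tube, and 37.3% higher and 18.7% lower with library sizes alone. No difference from these shares was tested. DESeq2 called 2 higher and 12 lower, against 10.5% higher and 14.5% lower of all tested genes. With abundance offsets 10 were higher and 15 lower, against 20.7% and 21.6%. The filter on low counts let 6 of the 59 pass only through the tenotomy libraries, where they are high: the risen Fzd2, Csnk1g1, Tcf7, Cby1 and Vangl1, and Ctnnbip1, which did not pass the test. Another 3, the fallen Wnt4, Fzd5 and Bambi, passed only through the sham libraries. The filter thus favours a difference in such genes, and of the 45 genes that reached the minimum in all 4 libraries 4 rose and 17 fell. With TMM, calls over all tested genes stood at 25.8% higher and 26.3% lower. Of the pathway genes outside the 9 that are named here as risen or fallen, only Wnt4, Fzd2, Fzd5, Ror1, Sdc4, Senp2, Csnk1d, Csnk1a1, Tle4, Ccn4, Myc and Bambi also passed with DESeq2.

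Of 2 tested genes of Wnt ligands and their secretion, 1 rose and 1 fell. Wnt4, a ligand, had 12 and 16 UMIs in the sham libraries and 3 and 5 in the tenotomy libraries, and fell by 2.72 on the log2 scale (SE 0.47, adjusted p = 0.000193). It was lower also per tube (-1.78, adjusted p = 0.0098). Wls, the carrier that brings Wnt proteins to the surface, had 21 and 23 against 65 and 84 UMIs and rose by 0.79 (SE 0.24, adjusted p = 0.0126). The other 9 ligand genes found had too few UMIs to test. Among them Wnt9a had 0 UMIs in both sham libraries and 6 and 9 in the tenotomy libraries.

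Among 9 tested Frizzled genes and co-receptors, 1 rose, which was Fzd2, and 5 fell, with a median of -0.91. Besides Fzd5, these were Ror1, a receptor tyrosine kinase for Wnt5a (-1.57, adjusted p = 3.09e-05), Musk, the kinase of the neuromuscular junction (-1.36, adjusted p = 0.0141), Adgra2, a co-receptor for Wnt7 ligands (-1.21, adjusted p = 0.0217), and the proteoglycan Sdc4 (-0.91, adjusted p = 0.00120). Sdc4, which was also among the MuSC markers, had -0.91 with TMM but 0.03 per tube and 0.12 with abundance offsets. Ryk, another Wnt-binding receptor, had -0.13 (adjusted p = 0.57). Per tube the median of these 9 genes was 0.028, with 3 higher and 2 lower, against a median of 1.01 and 62.0% higher and 4.58% lower over all tested genes.

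In the R-spondin group 2 genes were tested. The R-spondin receptor Lgr4 fell by 0.78 on the log2 scale (SE 0.37, adjusted p = 0.0986), with 35 and 13 UMIs in the sham libraries and 26 and 28 in the tenotomy libraries. The CPM of the second sham library, 58.9, lay between those of the tenotomy libraries, 67.6 and 56.7, and the call was lost with library sizes alone (adjusted p = 0.26) and with DESeq2 (0.36). Znrf3, a ligase that removes Frizzled from the membrane, had 0.12 (adjusted p = 0.81). Lgr5 had 0 UMIs in both sham libraries and 3 and 9 in the tenotomy libraries. Of the secreted and membrane inhibitors only Kremen1 could be tested (-0.25, adjusted p = 0.39), and 11 others found had too few UMIs. Among these, Shisa2 had 0 UMIs in both sham libraries and 6 and 12 in the tenotomy libraries.

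The group with dishevelled, the destruction complex and beta-catenin had 20 tested genes, of which 1 rose and 9 fell, with a median of -0.33. Ctnnb1, which encodes beta-catenin itself, had 19 and 21 UMIs in the sham libraries and 19 in each tenotomy library, a log2 fold change of -1.03 (SE 0.34, adjusted p = 0.0217) and of -0.07 per tube. The other genes that fell included Senp2, a SUMO protease (-1.77, adjusted p = 2.30e-06), and the casein kinases Csnk1d (-1.24, adjusted p = 1.38e-05) and Csnk1a1 (-0.96, adjusted p = 0.000169, but -0.16 and adjusted p = 0.40 with abundance offsets). Csnk1g1, another casein kinase, rose (1.46, adjusted p = 0.00629). Gsk3b, the kinase that marks beta-catenin, had 0.0010 (adjusted p = 0.998) with TMM. It was higher with abundance offsets (0.57, adjusted p = 0.013) and per tube (0.96, adjusted p = 0.0016). Per tube, 10 of the 20 genes were higher and 1, Senp2, was lower, with a median of 0.64, against 62.0% of all tested genes called higher and a median of 1.01. Abundance offsets gave 3 higher and 4 lower (median -0.13), against 20.7% and 21.6% of all tested genes. Library sizes alone gave 4 higher and 7 lower, against 37.3% and 18.7%.

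Of 13 tested TCF genes and cofactors, 2 rose and 2 fell, with a median of -0.056. Tcf7 and Cby1, a small protein that binds beta-catenin, rose, Cby1 by 2.1 (SE 0.56, adjusted p = 0.00568) but by 0.73 with abundance offsets (adjusted p = 0.39). Both entered the test only through the tenotomy libraries. The Groucho co-repressors Tle4 (-1.28, adjusted p = 0.00595) and Tle1 (-0.90, adjusted p = 0.0437) fell. Per tube, where 62.0% of all tested genes were called higher, 9 of the 13 were higher and 0 lower (median 0.90), and Tle4 and Tle1 had -0.31 and 0.07. Of 6 tested planar polarity genes 2 rose, Vangl1 and Scrib (0.93, adjusted p = 0.0139), and 2 fell, Daam1 (-0.88, adjusted p = 0.00965) and Rhoa (-0.48, adjusted p = 0.0837). Per tube 4 of the 6 were higher and 0 lower, near the share of all tested genes, with 0.08 for Daam1 and 0.48 for Rhoa.

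Among 18 widely used canonical target genes, 16 were found and 8 tested. Of these, 3 rose and 2 fell, with a median of 0.096, close to that of all genes. Ccn4 (1.06, adjusted p = 0.000774), Ccnd1, which encodes cyclin D1 (0.67, adjusted p = 0.0136), and Tcf7 rose. Myc had 164 and 160 UMIs in the sham libraries and 99 and 120 in the tenotomy libraries and fell by 1.52 (SE 0.16, adjusted p = 1.82e-06), and Bambi fell by 1.91 (SE 0.38, adjusted p = 0.000753). Both were lower per tube as well. Cd44, the most abundant of the group, had 0.07 (adjusted p = 0.74) with TMM. It was higher with abundance offsets (0.90, adjusted p = 2.76e-05) and per tube (1.04, adjusted p = 0.000176). Per tube 5 of the 8 were higher and 2 lower, against 62.0% and 4.58% of all tested genes. Of the untested target genes, Notum, Nkd1, Sp5 and Rnf43 had 0 UMIs in sham and at most 3 in all after tenotomy. Axin2, Lef1 and Lgr5, with UMIs given above, also belong to this group and had more UMIs in both tenotomy libraries than in either sham library. Tnfrsf19 had 2 and 11 UMIs in the sham libraries and 7 in each tenotomy library.

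**Figure D4:**
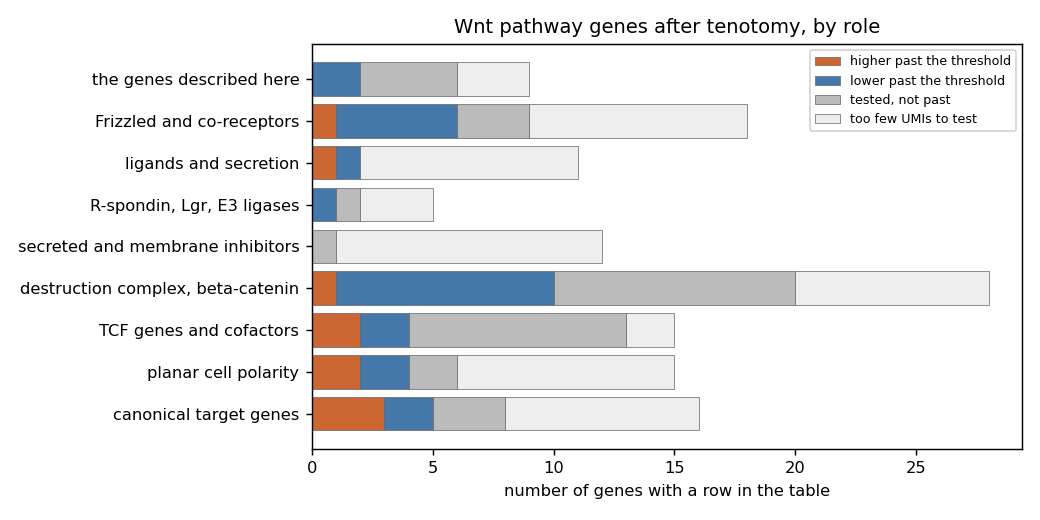
Number of genes found in the table (horizontal axis) in each group of Wnt pathway genes, divided into those higher past the threshold, lower past it, tested but not past it, and with too few UMIs to test, on the TMM scale. Of the 9 genes described here 2 were lower and 0 higher. The destruction complex group has 9 lower and 1 higher, while per tube 10 are higher and 1 is lower.

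Genes of other cell states and cell types moved between the same groups. With TMM, all 8 tested myoblast differentiation genes and 7 of 8 cell cycle genes rose after tenotomy. Of 12 MuSC markers, 7 fell and 2 rose. Over all tested genes TMM gave 25.8% higher and 26.3% lower. The 7 risen cell cycle genes had 0 to 6 UMIs in each sham library. They entered the test only through the tenotomy libraries, where they are high, and so did Mymx, Tnnt2 and Myh3. Pcna, the cell cycle gene that did not pass (-0.38, adjusted p = 0.18), had 40 and 34 UMIs in the sham libraries. Per tube, and also with abundance offsets, 5 MuSC markers were higher and 3 lower. Of all tested genes, offsets called 20.7% higher and 21.6% lower, and UMIs per tube 62.0% and 4.58%. Myogenin (Myog) went from 52 and 49 to 246 and 282 UMIs, Top2a, a topoisomerase of dividing cells, from 2 and 6 to 124 and 176, and Calcr, a marker of quiescent MuSCs, from 37 and 57 to 15 in each library. Whether these states account for any difference in the Wnt genes was not tested.

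Leukocyte markers summed to 2 and 5 UMIs in the sham libraries and 69 and 162 in the tenotomy libraries, or 8.71 and 22.7 against 179 and 328 CPM. Lyz2 was the most frequent, with 55 UMIs in all, and 8 of the 10 markers were at 0 in both sham libraries.

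Mural cell markers summed to 181 and 161 UMIs against 478 and 694 (788 and 729 against 1243 and 1405 CPM), of which Acta2 held 1073, and Myh11 was at 0 in sham. Of 4 tested, Acta2 (0.95, adjusted p = 0.000173) and Rgs5 (1.88, adjusted p = 0.00162) rose, Tagln fell (-0.61, adjusted p = 0.0453, but 0.32 with DESeq2 and 0.35 on the log2 scale per tube), and Abcc9 had 0.48 (adjusted p = 0.44). Endothelial markers, relevant because Fzd4 is known in endothelium, summed to 30 and 20 UMIs against 54 and 73. In CPM this was 131 and 90.6 against 140 and 148. Tek, the most frequent with 38 UMIs, fell (-1.41, adjusted p = 0.0154, but 0.22 with DESeq2), and Flt1 had -0.21 (adjusted p = 0.79). The other 8 had too few UMIs to test. Of these, Cdh5 had 3 and 1 UMIs against 14 and 11, and Egfl7 had 0 in both sham libraries against 7 and 4. Cldn5 was also at 0 in sham.

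Fibro-adipogenic markers summed to 1038 and 956 UMIs in the sham libraries and 1077 and 1298 in the tenotomy libraries, or 4518 and 4331 against 2800 and 2629 CPM. Of 5 tested, 4 fell with TMM and Ly6a, a surface antigen also found on endothelial and blood cells, rose. Ly6a had 1 and 0 UMIs against 22 and 41, so it entered the test only through the tenotomy libraries, where it is high. Its ratio in CPM was 32.3 (counting interval 5.59 to 1296), with an adjusted p of 0.000109 in the test but 0.15 with abundance offsets. Per tube Col3a1 and Dcn, which are among the 4, were higher (0.42 and 0.58). Col3a1 held 2270 of the UMIs, and Pdgfra, the defining receptor of that cell type, was at 0 in sham and at 2 UMIs in all. The part of any of these cells in the Wnt values was not tested.

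**Figure D5:**
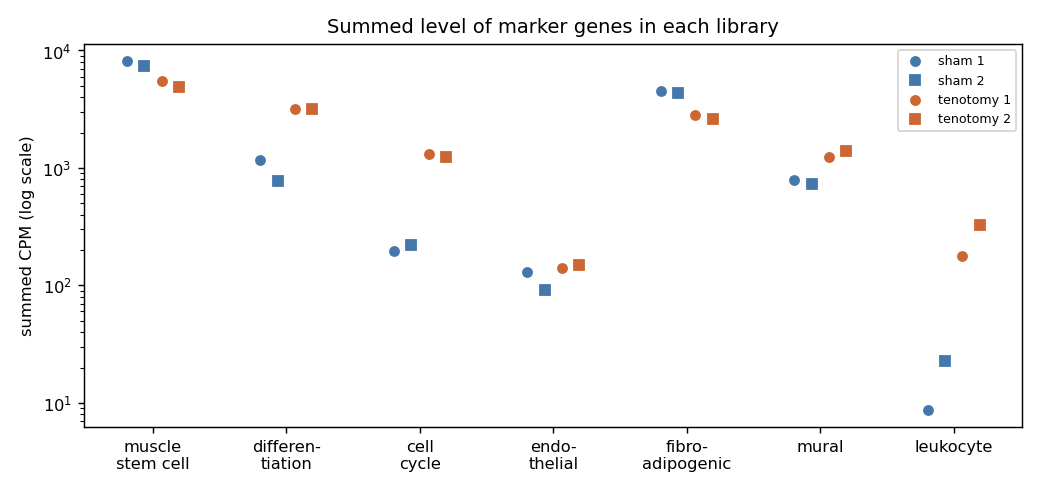
Summed CPM (log scale) of 7 lists of marker genes in the 4 libraries, with circles for replicate 1 and squares for replicate 2 of sham (blue) and tenotomy (orange). Leukocyte markers stand at 8.71 and 22.7 CPM in sham and at 179 and 328 CPM after tenotomy, while MuSC markers lie lower and differentiation and cell cycle genes higher after tenotomy.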

How the data were processed

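RNA-seq libraries of MuSCs were compared between sham and tenotomy, with 2 libraries per group. According to the methods, barcodes and UMIs were extracted with UMI-tools (version 1.0.0), reads were aligned to GRCm38 with HISAT2 (2.1.0) and assigned by featureCounts (1.6.4), and UMIs were collapsed per gene. The authors deposited raw UMI counts per gene and library; the annotation release and strand setting are not given in the sources used here. Rspo3 was not analysed here.

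From these counts, genes were kept by filterByExpr (minimum count 10, minimum total 15), scaled by TMM and tested with glmQLFit and glmQLFTest in edgeR 4.0.16 (R 4.3.3), with Benjamini-Hochberg adjustment over 7228 genes. The threshold of 0.1 follows the study's methods, which used DESeq2 1.22.2. Library sizes, also where used alone, were the UMIs of the genes kept, except for TMM over all genes. The biological coefficient of variation was 9.50%. SE is the fold change divided by the square root of the F statistic. Ratios and shares carry exact binomial intervals of 95%. All 19353 identifiers matched GENCODE M21, and 19331 had the same name. Replicates of a group differed by more than sampling noise (chi-square per degree of freedom 1.36 for sham and 1.57 for tenotomy). Upstream sequences are from RefSeq.

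On simulated counts with 186 changed genes among 6964 tested, the fit recovered 97.8% at 4-fold and 66.0% at 2-fold. Of its calls 0 had the wrong sign and 8.43% were false. The simulation changed few genes, equally in both directions, with the same dispersion for every gene. In the data 3766 of 7228 genes were called, so these rates do not measure how reliable those calls are. Alternatives were DESeq2 (1.42.0), its size factors, library sizes alone, UMIs per tube, loess offsets, other filters and thresholds, thinning, a replicate block and leaving out each library. TMM over all genes was added after seeing the data. Named were all members. Of each other list, up to 4 genes past the threshold per direction by fold change and up to 3 of highest CPM were named. Ctnnb1 and, of marker lists, the gene of most UMIs were named too. Axin1, Fzd1, Gsk3b, Lgr5, Pax7, Tnfrsf19, some of the genes at 0 in sham and the examples of markers were named in addition, after their values were seen. A further list of marker genes is not reported here. The members and lists were chosen with earlier results of these data known.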

Additional observations from a re-analysis of the deposited data

How the results depend on the processing

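With DESeq2, 762 genes were called higher and 1049 lower, and 0 of the Wnt genes lower, against 1868, 1898 and 2 with edgeR. With UMIs per tube 4481 genes were higher and 331 lower, and 3 Wnt genes higher and 0 lower, with log2 fold changes of 0.15 for Fzd4, 0.63 for Lrp5 and 0.28 for Lrp6 in place of negative values. With library sizes alone 3 Wnt genes were higher and 1 lower, against 37.3% and 18.7% of all tested genes. Abundance offsets gave 1 and 1, against 20.7% and 21.6%. A mean of at least 20 UMIs left 4 of the genes to test, with 2 higher and 2 lower, against 1299 and 1340 of 4715 genes. Thinned counts gave 1 higher and 2 lower, against 1619 and 1636 of 6518. TMM over all genes, an alternative chosen after seeing the data, gave 3 higher and 2 lower, against 2059 and 1697 of 7228. The 3 higher genes passed narrowly, at adjusted p = 0.076 for Apc, 0.080 for Fzd7 and 0.0995 for Tcf7l2. Leaving out 1 library at a time leaves 1 library in a group, so only effect sizes are given. For Lrp6 the log2 fold changes ran from -0.99 without sham replicate 1 to -0.40 without sham replicate 2. For Lrp5 they ran from -0.86 to 0.41, above 0 without sham replicate 2 or tenotomy replicate 2. Of 82 alternative values of single Wnt genes, 59 kept their direction and their side of the threshold. In the same direction 5 lost a call and 13 gained one, and 5 changed direction. Among these last 5, Fzd4 and Lrp6 per tube also lost their call. With the replicate block 1806 genes were higher and 1864 lower, and 0 and 2 Wnt genes; whether libraries of the same number share a mouse, with sham surgery on the other leg as in other experiments of the study, was not stated for these libraries, their deviations were not correlated in a way that pairs them (r = -0.035), and the block changed no call of these genes. Only scaling between libraries separates a fall of Fzd4 and Lrp6 from an equal number of molecules per tube. The capture efficiency of a tube is unknown. With library sizes alone Fzd4 still passed (-0.54, adjusted p = 0.059), but Lrp6 did not (-0.41, adjusted p = 0.12). With 0 to 14 UMIs per library, Axin2, Lef1 and Vangl2 allow only wide ratios.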
